A study of Mus musculus with 13 samples.

Results

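Coinhibitory receptors are cell surface proteins that lower the response of a T cell to antigen. The 10 genes described here were chosen by name for that role, with earlier results of these data known. The members are Ctla4, Lag3, Havcr2, Pdcd1, Tigit, Cd160, Btla, Cd200, Cd5 and Vsir. Of these, Cd200 encodes a ligand that acts through a receptor on other cells, and it is counted with the receptors here. They are 10 of the 22180 genes that the arrays measured through a probe set with 1 gene symbol, and each had 1 such probe set. All 10 were among the 12710 genes tested, which lay above the median of all values (4.31 on the log2 scale) on at least 4 arrays. Havcr2 lay above that floor on 12 of 13 arrays and the other 9 genes on all 13.

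The cells were donor CD4+ T cells from mice with acute graft-versus-host disease (GVHD), where transferred T cells respond to host tissue. CFSE-labelled splenocytes of C57Bl/6 mice went into B6D2F1 hosts, both strains aged 10 to 12 weeks. Hosts of the Cl-BBQ group (5 arrays) received that compound daily from day 0 to day 2 at 10 mg/kg, hosts of the TCDD group (4 arrays) received 15 µg/kg TCDD on day 0, and hosts of the vehicle group (4 arrays) received vehicle over the same days as Cl-BBQ. At 72 h, CD4+ cells that had diluted the dye through at least 2 divisions were sorted from spleen and lymph node, so every group holds only cells that had divided. Cl-BBQ and TCDD, a dioxin, each bind AhR, the aryl hydrocarbon receptor, which moves into the nucleus with its ligand and acts there as a transcription factor. All hosts carried the donor cells, and no array holds cells from a mouse without GVHD. The labels call the arrays of a group biological replicates without saying whether each array was 1 mouse. The p-values set group differences against the spread between these arrays.

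Coinhibitory receptors act in several ways. CTLA-4 competes with the costimulatory receptor CD28 for their shared ligands, PD-1 and BTLA recruit tyrosine phosphatases to the antigen receptor complex, and LAG-3, TIM-3 (the product of Havcr2), TIGIT and CD160 bind ligands on other cells. CD200 acts through a partner receptor on other cells, CD5 is set by the strength of antigen receptor signalling, and VISTA (the product of Vsir) is found on resting T cells. Activated T cells turn several of these genes on, and regulatory T cells carry CTLA-4 and TIGIT in quantity.

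Promoter sequences are shown for 4 members that carry the results below: Ctla4 and Havcr2, which were higher with both ligands, Cd160, also higher, and Cd200, which was lower. For Cd160 the second of its 2 promoters is shown, the one with a match. They run from 250 bases before to 50 bases after the annotated start of the gene, are taken from RefSeq on GRCm38.p6 and are written 5′ to 3′ on the strand of the gene. Of the 10 members, 9 matched that table, with 10 promoters in all, since Cd160 has 2. Capitals mark GCGTG, the core of the element that AhR binds, and TGANTCA, the element of AP-1 factors, each searched on both strands.
Ctla4: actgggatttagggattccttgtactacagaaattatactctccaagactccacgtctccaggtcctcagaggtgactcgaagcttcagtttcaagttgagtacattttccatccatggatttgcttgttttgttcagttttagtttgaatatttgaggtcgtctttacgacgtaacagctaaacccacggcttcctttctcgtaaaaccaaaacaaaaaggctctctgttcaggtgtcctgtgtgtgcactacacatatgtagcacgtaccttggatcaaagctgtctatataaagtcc
Havcr2: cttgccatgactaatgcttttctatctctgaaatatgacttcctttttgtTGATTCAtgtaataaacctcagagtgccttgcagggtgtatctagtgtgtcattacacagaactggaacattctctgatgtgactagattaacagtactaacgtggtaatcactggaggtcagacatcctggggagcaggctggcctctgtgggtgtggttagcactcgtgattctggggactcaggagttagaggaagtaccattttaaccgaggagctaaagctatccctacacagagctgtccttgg
Cd160, promoter 2: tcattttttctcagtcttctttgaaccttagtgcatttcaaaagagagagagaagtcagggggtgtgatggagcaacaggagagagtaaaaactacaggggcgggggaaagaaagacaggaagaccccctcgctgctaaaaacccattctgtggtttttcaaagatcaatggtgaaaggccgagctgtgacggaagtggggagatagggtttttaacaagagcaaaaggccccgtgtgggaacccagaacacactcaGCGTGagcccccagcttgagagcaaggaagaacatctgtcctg
Cd200: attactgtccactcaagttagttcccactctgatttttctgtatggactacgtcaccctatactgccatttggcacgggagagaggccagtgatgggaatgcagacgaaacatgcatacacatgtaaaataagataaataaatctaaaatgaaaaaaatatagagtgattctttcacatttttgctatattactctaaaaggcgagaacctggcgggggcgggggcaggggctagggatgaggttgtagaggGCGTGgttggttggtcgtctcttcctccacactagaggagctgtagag

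The Ctla4 promoter (chr1:60908775-60909074, plus strand) holds neither set of letters. The Havcr2 promoter (chr11:46454681-46454980, plus strand) holds 1 match to TGANTCA, 200 bases before the start. The second Cd160 promoter (chr3:96814472-96814771, minus strand) holds 1 match to GCGTG, 7 bases after the start, and the first (chr3:96829302-96829601, minus strand) holds none. The Cd200 promoter (chr16:45409004-45409303, minus strand) holds 1 match to GCGTG, 2 bases after the start. These were the only matches to the 2 motifs in the members' 10 promoters. Among all 32851 promoters of 300 bases, 32.4% held GCGTG and 7.81% held TGANTCA, and 61.3% held GGAAA, the core of the element that NFAT binds. GGAAA was present in the promoters of Ctla4, Pdcd1, Tigit and Cd5 and in the second promoter of Cd160. A match is a run of letters and shows no binding.

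Members changed in both directions with both ligands. Ctla4, Lag3, Havcr2 and Cd160 were higher than in vehicle cells with Cl-BBQ and with TCDD, Btla and Cd200 were lower with both, and Vsir passed the test as higher with Cl-BBQ. Tigit, Pdcd1 and Cd5 passed in no comparison. Values are log2 expression, and a gene is called where limma's moderated test gives a Benjamini-Hochberg adjusted p under 0.05 over all 12710 genes. With Cl-BBQ against vehicle, 7 of 10 members were called, 5 higher and 2 lower, beside 11.3% of all genes tested, of which 5.31% were higher and 6.03% lower. With TCDD against vehicle, 6 of 10 were called, 4 higher and 2 lower, beside 6.71% of all genes, of which 3.21% were higher and 3.5% lower. On average over all arrays, Havcr2 was brighter than 66.8% of genes with a probe set, and each other member than at least 81.25%. The shares over all genes were not taken among genes of like brightness. The median difference over the 10 members was 0.44 with Cl-BBQ and 0.33 with TCDD, where the medians over all genes were -0.0064 and -0.0009. Both comparisons use the same 4 vehicle arrays, so they are not independent of each other. The members were chosen with earlier results of these data known, so the counts describe the list and are not an independent test.

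**Figure D1:**
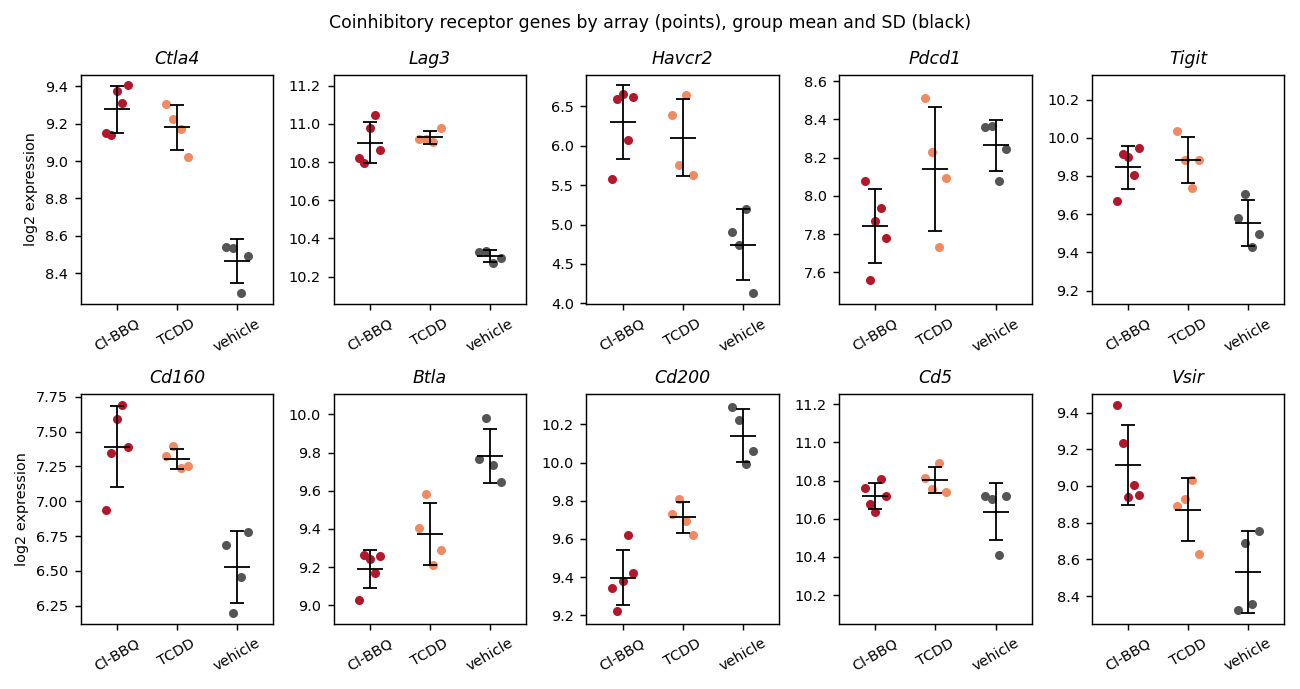
Log2 expression of each of the 10 members on every array (points) with the group mean and SD (black), for 5 Cl-BBQ, 4 TCDD and 4 vehicle arrays, each panel with its own scale. In the panels of Ctla4, Lag3, Havcr2 and Cd160 all treated arrays lie above all vehicle arrays, and in those of Btla and Cd200 all lie below.

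Ctla4 encodes CTLA-4, which takes the ligands CD80 and CD86 away from CD28. Log2 expression of Ctla4 was 9.15, 9.14, 9.38, 9.31 and 9.41 on the Cl-BBQ arrays and 9.30, 9.22, 9.17 and 9.02 on the TCDD arrays, against 8.54, 8.54, 8.29 and 8.49 on the vehicle arrays. Every treated array lay above every vehicle array, and the treated groups overlapped each other. Ctla4 rose by 0.81 ± 0.09 (SE) with Cl-BBQ, a fold of 1.75 (limma, adjusted p = 3.4e-05). With TCDD it rose by 0.71 ± 0.10, a fold of 1.64 (limma, adjusted p = 0.00034). Both calls held without any one array.

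Lag3 encodes LAG-3, which binds MHC class II and other ligands and is placed beside CD4 in the genome. Log2 expression of Lag3 was 10.82, 10.80, 10.98, 11.04 and 10.86 with Cl-BBQ and 10.92, 10.92, 10.90 and 10.98 with TCDD, against 10.33, 10.33, 10.27 and 10.30 with vehicle. The groups of vehicle and TCDD arrays were tight, each with an SD of 0.03, and all treated arrays lay above all vehicle arrays. The rise was 0.59 ± 0.08 with Cl-BBQ, a fold of 1.51 (limma, adjusted p = 9.4e-05). It was 0.62 ± 0.08 with TCDD, a fold of 1.54 (limma, adjusted p = 0.00020).

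Havcr2 encodes TIM-3, which marks effector T cells of the Th1 type. Log2 expression of Havcr2 was 5.57, 6.59, 6.65, 6.07 and 6.62 with Cl-BBQ and 6.39, 5.75, 6.64 and 5.63 with TCDD, against 4.90, 4.75, 5.20 and 4.13 with vehicle. It had the widest spread of the members, with SDs of 0.47, 0.49 and 0.45 in these groups, and the fourth vehicle array lay under the floor of 4.31. All treated arrays were still above all vehicle arrays. The difference was also the greatest of the 10 members, at 1.56 ± 0.27 with Cl-BBQ, a fold of 2.94 (limma, adjusted p = 0.0012). With TCDD it was 1.36 ± 0.29, a fold of 2.56 (limma, adjusted p = 0.0087). The vehicle mean of 4.74 lies near the floor, so the fold is less certain than the direction.

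Cd160 encodes CD160, a receptor that shares the ligand HVEM (encoded by Tnfrsf14) with BTLA. Log2 expression of Cd160 was 6.93, 7.35, 7.59, 7.69 and 7.39 with Cl-BBQ and 7.32, 7.39, 7.24 and 7.25 with TCDD, against 6.68, 6.20, 6.46 and 6.78 with vehicle. The first Cl-BBQ array was the lowest treated one and still lay above the highest vehicle array. Cd160 rose by 0.86 ± 0.15 with Cl-BBQ, a fold of 1.82 (limma, adjusted p = 0.0010), and by 0.77 ± 0.16 with TCDD, a fold of 1.71 (limma, adjusted p = 0.0063). Without any one array, the adjusted p stayed at or below 0.0047 with Cl-BBQ and 0.024 with TCDD.

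Vsir encodes VISTA. Log2 expression of Vsir was 9.44, 9.23, 8.94, 9.0 and 8.95 with Cl-BBQ and 8.89, 8.93, 9.03 and 8.63 with TCDD, against 8.32, 8.69, 8.36 and 8.75 with vehicle. All Cl-BBQ arrays lay above the vehicle arrays, while the fourth TCDD array fell among them. Vsir rose by 0.58 ± 0.13 with Cl-BBQ, a fold of 1.5 (limma, adjusted p = 0.0094). With TCDD the difference was 0.34 ± 0.14 and was not called (limma, adjusted p = 0.21). The 2 ligands were not shown to differ, since the Cl-BBQ minus TCDD difference was 0.24 with a 95% interval from -0.04 to 0.53.

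Btla encodes BTLA, the other member that binds HVEM, and it moved opposite to Cd160. Log2 expression of Btla was 9.03, 9.26, 9.24, 9.17 and 9.26 with Cl-BBQ and 9.40, 9.58, 9.21 and 9.29 with TCDD, against 9.76, 9.98, 9.73 and 9.65 with vehicle. All treated arrays lay below all vehicle arrays. Btla fell by 0.59 ± 0.10 with Cl-BBQ, so vehicle cells were 1.51-fold higher (limma, adjusted p = 0.00091). With TCDD it fell by 0.41 ± 0.11, and vehicle cells were 1.33-fold higher (limma, adjusted p = 0.029). The TCDD call was lost without TCDD replicate 1, 3 or 4 or vehicle replicate 1 or 2, with adjusted p up to 0.097. It was also lost with no filter on dim probe sets (0.063) and in a fit of the 2 groups alone (0.059).

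Cd200 encodes the ligand CD200, whose receptor CD200R1 sits mainly on myeloid cells and on some T cells. Log2 expression of Cd200 was 9.34, 9.22, 9.38, 9.62 and 9.42 with Cl-BBQ and 9.73, 9.81, 9.69 and 9.62 with TCDD, against 10.29, 10.22, 9.99 and 10.06 with vehicle. The groups were ordered, with Cl-BBQ lowest, TCDD between and vehicle highest, and no 2 groups overlapped. The Cl-BBQ arrays (up to 9.618) and the TCDD arrays (from 9.619) nearly touched, and their difference was not called (limma, adjusted p = 0.53). Cd200 fell by 0.74 ± 0.10 with Cl-BBQ, and vehicle cells were 1.67-fold higher (limma, adjusted p = 9.4e-05). With TCDD it fell by 0.43 ± 0.10, and vehicle cells were 1.35-fold higher (limma, adjusted p = 0.018). The TCDD call was lost without TCDD replicate 4 or vehicle replicate 1 or 2 (adjusted p up to 0.065).

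Tigit encodes TIGIT, which binds CD155 (encoded by Pvr) in place of the costimulatory receptor CD226. Log2 expression of Tigit was 9.67, 9.91, 9.90, 9.80 and 9.95 with Cl-BBQ and 10.03, 9.88, 9.74 and 9.88 with TCDD, against 9.58, 9.70, 9.43 and 9.50 with vehicle. The TCDD arrays lay above the vehicle arrays, and the first Cl-BBQ array lay just under the highest of them. The difference was 0.29 ± 0.09 with Cl-BBQ (limma, adjusted p = 0.058) and 0.33 ± 0.10 with TCDD (limma, adjusted p = 0.060), with 95% intervals from 0.09 to 0.49 and from 0.12 to 0.54. Neither was called. Without Cl-BBQ replicate 1 both passed (0.028 and 0.042), and the Cl-BBQ difference also passed without vehicle replicate 2 (0.045). Both also passed after quantile normalization applied again (0.028 with Cl-BBQ and 0.026 with TCDD), where a mean above 6 was required (0.029 and 0.029), with trend and robust eBayes (0.017 and 0.017) and with array weights (0.042 and 0.047).

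Pdcd1 encodes PD-1. Log2 expression of Pdcd1 was 8.08, 7.56, 7.87, 7.94 and 7.78 with Cl-BBQ and 8.51, 8.23, 7.73 and 8.09 with TCDD, against 8.36, 8.37, 8.08 and 8.25 with vehicle. The Cl-BBQ arrays all lay below the vehicle arrays, the closest pair at 8.08 each, and the TCDD arrays reached from below to above them. The difference was -0.42 ± 0.14 with Cl-BBQ (limma, adjusted p = 0.082) and -0.12 ± 0.15 with TCDD (limma, adjusted p = 0.76). Neither was called. Without TCDD replicate 3, the lowest of its group, the Cl-BBQ difference passed (0.041) and the TCDD difference became 0.01. The Cl-BBQ difference also passed where a mean above 6 was required (0.048), with array weights (0.037) and in a fit of the 2 groups alone (0.046).

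Cd5 encodes CD5, a scavenger receptor family protein that dampens antigen receptor signals. Log2 expression of Cd5 was 10.76, 10.68, 10.64, 10.81 and 10.72 with Cl-BBQ and 10.82, 10.76, 10.89 and 10.74 with TCDD, against 10.72, 10.70, 10.41 and 10.72 with vehicle. The Cl-BBQ and vehicle arrays overlapped, and the TCDD arrays lay just above the vehicle arrays. The difference was 0.08 with a 95% interval from -0.10 to 0.27 with Cl-BBQ, and 0.16 with an interval from -0.03 to 0.36 with TCDD (limma, adjusted p = 0.64 and 0.39).

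**Figure D2:**
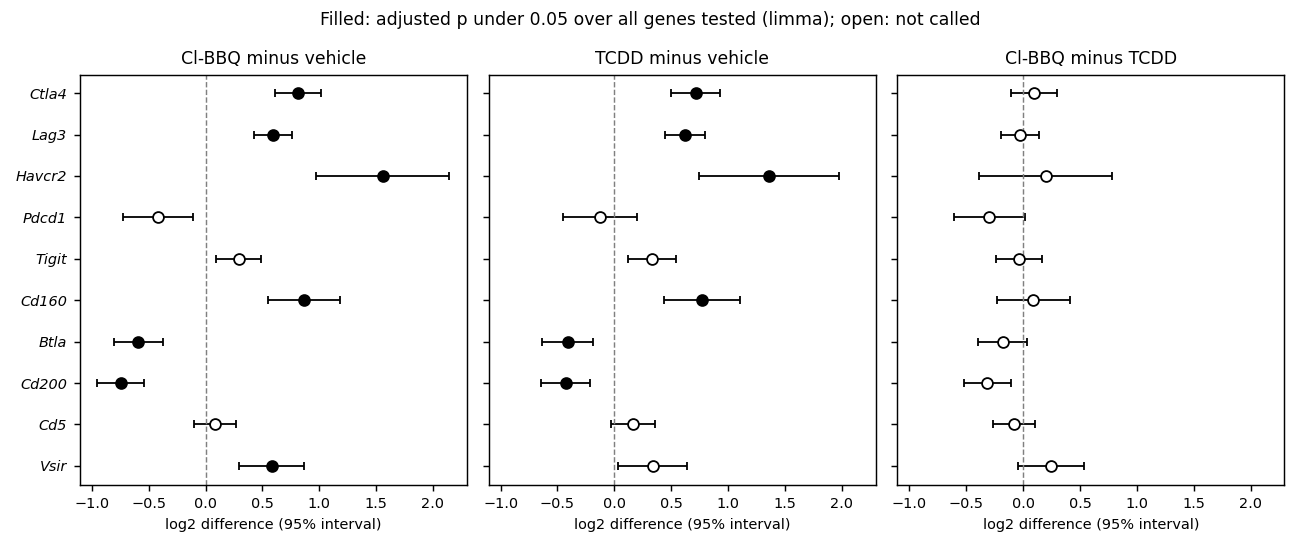
Log2 difference of each member with its 95% interval from the limma fit, for Cl-BBQ minus vehicle, TCDD minus vehicle and Cl-BBQ minus TCDD. The intervals of Cd5 include 0 in all 3 comparisons, and those of Havcr2 lie furthest to the right against vehicle.

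Counted by array rather than by model, 8 of 10 members did not overlap between Cl-BBQ and vehicle (5 above, 3 below), beside 12.9% of all genes. Between TCDD and vehicle 8 of 10 did not overlap (6 above, 2 below), beside 13.6% of all genes. Pdcd1 was the member below vehicle on all Cl-BBQ arrays without a call, and Tigit and Cd5 were above vehicle on all TCDD arrays without one. At an unadjusted p under 0.05 the counts were 9 of 10 with Cl-BBQ and 8 of 10 with TCDD, beside 2924 and 2284 of all 12710 genes.

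The direct comparison of the ligands answers whether the 2 regimens left the receptors at different levels. Dose, number of doses and compound differ together, so they cannot be told apart. No member was called between Cl-BBQ and TCDD (limma), where 3 of 12710 genes, 0.0236%, were called. At an unadjusted p under 0.05 there was 1 member, Cd200, beside 815 of all genes. Cd200 was lower by 0.32 ± 0.10 with Cl-BBQ (limma, unadjusted p = 0.0056, adjusted p = 0.53). It was also the 1 member without overlap, beside 2.11% of all genes, though the groups nearly touched, with the highest Cl-BBQ array at 9.618 and the lowest TCDD array at 9.619. The Cl-BBQ minus TCDD difference of Pdcd1 was -0.30 with a 95% interval from -0.61 to 0.01. The Pdcd1 values of the 2 groups overlapped. For the other 8 members the interval likewise included 0. Ctla4 differed by 0.10 (-0.11 to 0.30), Lag3 by -0.03 (-0.19 to 0.14) and Tigit by -0.04 (-0.24 to 0.16). Havcr2 differed by 0.20 (-0.39 to 0.78), the widest interval, Cd160 by 0.09 (-0.23 to 0.41) and Vsir by 0.24 (-0.04 to 0.53). Btla differed by -0.18 (-0.39 to 0.03) and Cd5 by -0.08 (-0.27 to 0.10). These intervals leave room for differences of the sizes printed, and do not show that the ligands act alike.

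The receptors' ligands and partners were measured in the same sorted cells, although most act on other cells. Of 17 listed, 11 were tested, 3 rising and 2 falling with Cl-BBQ and 3 rising and 1 falling with TCDD (limma). For this and the lists that follow, the shares of all genes called were 11.3% with Cl-BBQ and 6.71% with TCDD. Lgals3, which encodes galectin-3, a LAG-3 binding lectin, rose by 1.73 ± 0.14 with Cl-BBQ and 1.17 ± 0.14 with TCDD. Selplg, which encodes PSGL-1, a VISTA binding protein, rose by 1.03 ± 0.10 and 0.81 ± 0.11, and Cd200r1, the receptor for CD200, by 1.14 ± 0.19 and 0.99 ± 0.21. Cd200r1 averaged 5.64 with Cl-BBQ and 5.49 with TCDD, against 4.50 with vehicle, near the floor. Hmgb1, a TIM-3 ligand, fell by 0.38 ± 0.09 with Cl-BBQ and 0.40 ± 0.10 with TCDD, and its TCDD call was lost without TCDD replicate 2 or 4 or vehicle replicate 1 (adjusted p up to 0.055). Pdcd1lg2, which encodes the PD-1 ligand PD-L2, fell by 0.43 ± 0.11 with Cl-BBQ and had a difference of -0.39 with TCDD (adjusted p = 0.054), which passed without Cl-BBQ replicate 2 or 4 or TCDD replicate 1 (down to 0.031) and with array weights (0.045). Tnfrsf14, which encodes HVEM, had differences of 0.32 with Cl-BBQ and 0.27 with TCDD (adjusted p = 0.17 and 0.34).

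Costimulatory receptors oppose the members, and all 11 listed were tested. With Cl-BBQ 4 rose and none fell, and with TCDD 3 rose and none fell (limma). Tnfrsf9, which encodes 4-1BB, rose by 1.12 ± 0.14 with Cl-BBQ and 1.12 ± 0.15 with TCDD, and Cd27 by 0.65 ± 0.11 and 0.58 ± 0.12. Tnfrsf18, which encodes GITR, rose by 0.69 ± 0.11 with Cl-BBQ and 0.45 ± 0.12 with TCDD, and the TCDD call was lost without TCDD replicate 1, 2 or 4 or any one vehicle array (adjusted p up to 0.10), and with median centring, no filter or 2 groups alone (up to 0.066). Icos rose by 0.29 ± 0.09 with Cl-BBQ (limma, adjusted p = 0.042), a call lost in 11 of 13 fits with one array left out, all but those without Cl-BBQ replicate 1 or 4 (up to 0.10), and also with no filter and with 2 groups alone.

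Of 14 further inhibitory receptors and surface enzymes, 10 were tested. With Cl-BBQ 3 rose and none fell, and with TCDD 3 rose and 1 fell (limma). Cd96, which binds CD155 as TIGIT does, rose by 1.77 ± 0.13 and 1.49 ± 0.13, and Lilrb4a, which encodes gp49B, by 3.04 ± 0.33 and 2.63 ± 0.35. Lilrb4a averaged 3.74 on the vehicle arrays (2.76 to 4.71), under the floor of 4.31, so these sizes are not exact. The vehicle arrays alone could not meet the filter. Lilrb4a thus entered the test through the treated arrays, where it was high, at 5.97 or more with Cl-BBQ and 6.01 or more with TCDD. Cd6, a relative of Cd5, rose by 0.35 ± 0.10 with Cl-BBQ and 0.45 ± 0.10 with TCDD. Its Cl-BBQ call was lost without Cl-BBQ replicate 1, 4 or 5 or vehicle replicate 3 or 4 (up to 0.091), with no filter on dim probe sets (0.065) and with 2 groups alone (0.062). Pecam1, which encodes CD31, fell by 0.44 ± 0.12 with TCDD, a call lost without any one TCDD or vehicle array (up to 0.10), after quantile normalization applied again (0.052) and with no filter (0.075). Its Cl-BBQ difference was -0.36 (adjusted p = 0.050), which passed under 5 other settings (down to 0.026) and without Cl-BBQ replicate 4 (0.021).

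**Figure D3:**
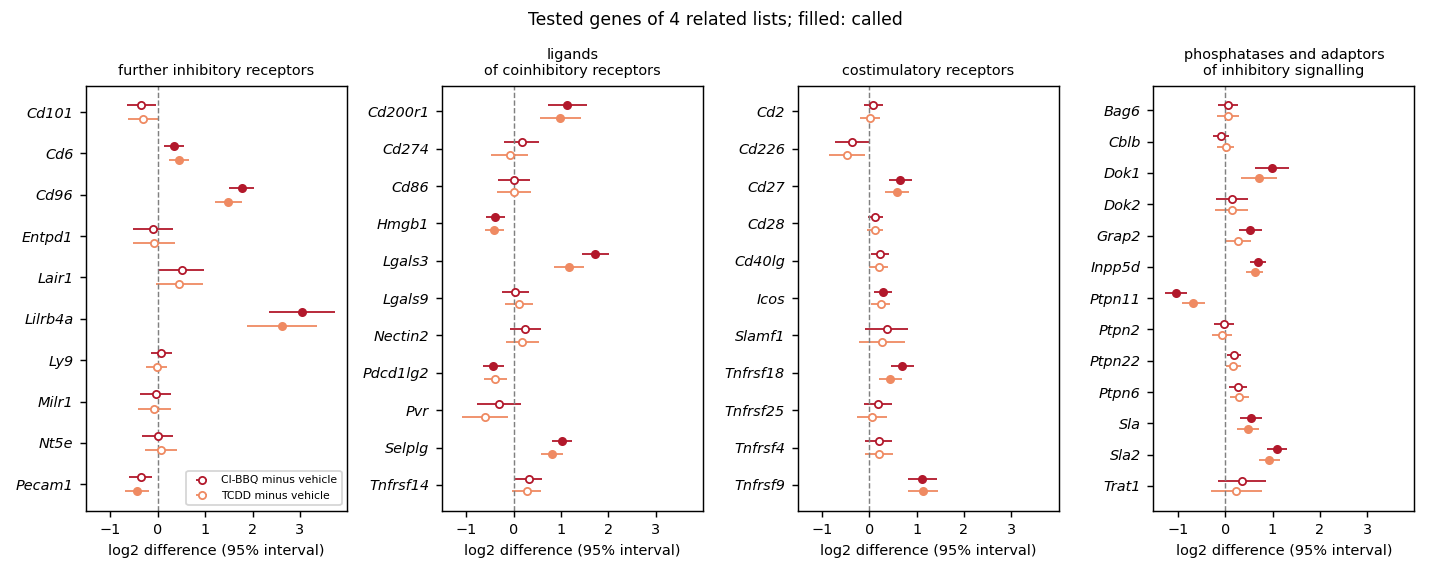
Log2 difference with its 95% interval for every tested gene of 4 lists (further inhibitory receptors and surface enzymes, ligands and partners, costimulatory receptors, phosphatases and adaptors), for Cl-BBQ minus vehicle and TCDD minus vehicle. Filled points are genes called by limma, and Cd96 and Lilrb4a lie furthest to the right in the first panel, Lilrb4a with a vehicle mean under the floor.

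Among 13 tested phosphatases and adaptors, 5 rose and 1 fell with Cl-BBQ and 4 rose and 1 fell with TCDD (limma). The list mixes genes that act under inhibitory receptors with adaptors of the antigen receptor itself. These counts therefore do not stand for inhibitory signalling alone. Sla2, an adaptor that limits antigen receptor levels, rose by 1.10 ± 0.10 and 0.93 ± 0.10. Inpp5d, which encodes the lipid phosphatase SHIP-1, rose by 0.70 ± 0.08 and 0.62 ± 0.09. Ptpn11, which encodes the phosphatase SHP-2 that PD-1 and BTLA recruit, fell by 1.03 ± 0.11 and 0.67 ± 0.11. Sla rose by 0.55 ± 0.11 and 0.48 ± 0.11, and Dok1 rose by 0.99 ± 0.17 with Cl-BBQ and 0.72 ± 0.18 with TCDD. The TCDD call of Dok1 was lost without TCDD replicate 1 or 4 or vehicle replicate 1 or 3 (up to 0.079).

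Of 18 transcription factors known to act on these receptor genes, 15 were tested, with 2 rising and 2 falling with Cl-BBQ and 1 rising and 1 falling with TCDD (limma). Of all genes tested, 11.3% were called with Cl-BBQ and 6.71% with TCDD. Prdm1, which encodes Blimp-1, a factor known to act on several coinhibitory receptor genes in mice, rose by 1.13 ± 0.21 with Cl-BBQ and 1.02 ± 0.22 with TCDD. Irf4 fell by 0.54 ± 0.13 and 0.52 ± 0.14, the TCDD call being lost without any one TCDD or vehicle array (up to 0.10) and with no filter (0.073). Tox fell by 0.64 ± 0.10 with Cl-BBQ and Tbx21 rose by 0.64 ± 0.15, with TCDD differences of -0.31 and 0.34 that were not called (adjusted p = 0.10 and 0.26). Ahr itself had differences of 0.28 with Cl-BBQ and 0.42 with TCDD (adjusted p = 0.41 and 0.27).

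For each member the tested gene most like it over the 13 arrays was taken by the highest Pearson correlation. Predicted genes, clone names and antigen receptor and immunoglobulin segments were left out. The measure includes the group differences all called genes share. Ctla4 was most like Sla2 (0.984), Lag3 like Nfkbiz (0.980) and Havcr2 like Arrb2 (0.949). Cd160 was most like Cish (0.948), Btla like Alms1 (0.954) and Cd200 like Tox (0.969). For Tigit it was Mfsd13a (0.950), for Cd5 Cds2 (0.906), for Vsir Klhl28 (0.925) and for Pdcd1 Cebpa (0.878). After the group means were removed, which leaves the differences within groups, the values for the same pairs were 0.79 for Ctla4, 0.60 for Lag3 and 0.87 for Havcr2. They were 0.75 for Cd160, 0.78 for Btla and 0.82 for Cd200. For Tigit the value was 0.90, for Cd5 0.92, for Vsir 0.82 and for Pdcd1 0.78. All are given as a description.

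The sorted population carried its defining T cell markers, with Cd4 at 10.58 on average with Cl-BBQ and 10.58 with TCDD, against 10.52 with vehicle. The mean over the 6 T cell markers measured was 10.665 or more on every Cl-BBQ array and 10.675 or more on every TCDD array, against 10.657 or less on the vehicle arrays. Thy1 among them rose by 0.36 ± 0.07 with Cl-BBQ and 0.30 ± 0.08 with TCDD (limma, adjusted p = 0.0042 and 0.035). The TCDD call of Thy1 was lost without TCDD replicate 1, 2 or 3 or any one vehicle array (up to 0.10), and with median centring, no filter or 2 groups alone. In bulk samples, fewer cells of a type and less RNA per cell cannot be told apart, for the members as for the markers. Of 13 myeloid and dendritic cell markers, 12 averaged under the floor with Cl-BBQ, 11 with TCDD and 10 with vehicle. The list means lay between 3.46 and 3.81 with Cl-BBQ and between 3.52 and 3.83 with TCDD, against 3.81 to 3.92 with vehicle. Cybb, an oxidase subunit of phagocytes, was the 1 called of the 3 tested, at 4.11 and 4.44, against 6.58 (limma, adjusted p = 6.5e-05 and 0.00070). Csf1r and Siglech had differences of -0.18 and -0.10 with Cl-BBQ and -0.17 and -0.07 with TCDD. The 7 B cell markers measured averaged 4.13 to 4.28 and 4.01 to 4.26, against 4.32 to 4.54. Cd22 was the 1 called of the 5 tested, at 4.10 and 4.03, both under the floor, against 6.17 (limma, adjusted p = 3.8e-07 and 9.8e-07). Every treated array of Cd22 lay under the floor, at most 4.29 with Cl-BBQ and 4.22 with TCDD. It thus entered the test only through the vehicle arrays, where it was high, and without any one of these it was not tested. Cd79a, Pax5, Blk and Cd79b had differences of -0.20, -0.02, 0.17 and 0.64 with Cl-BBQ and of 0.00, -0.02, 0.18 and 0.10 with TCDD. Of 4 measured NK markers, Ncr1 averaged 4.24 with Cl-BBQ and 4.38 with TCDD, against 4.05 with vehicle, and Klrb1c 5.60 and 5.77, against 6.10. Neither was called, while Gzma, a granzyme also made by T cells, averaged 9.28 and 8.08, against 4.63 (limma, adjusted p = 5.3e-10 and 2.3e-08). Of the CD8 genes, Cd8a averaged 4.77 and 4.75, against 4.17, and Cd8b1 6.88 and 6.48, against 6.74, with no call. The part of other cells in the members' differences was not tested.

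Regulatory T cells carry much CTLA-4 and TIGIT, so their markers stand beside those members. The list of 7 averaged 6.85 to 7.16 with Cl-BBQ and 6.84 to 7.06 with TCDD, against 7.10 to 7.39 with vehicle. Foxp3 averaged 7.17 with Cl-BBQ and 7.17 with TCDD, against 7.45 with vehicle, and was not called. Of the 6 tested, 3 rose and 2 fell with Cl-BBQ and 2 rose and 1 fell with TCDD (limma). Il2ra rose by 0.97 ± 0.17 with Cl-BBQ and 0.66 ± 0.18 with TCDD, Tnfrsf18 rose with both as given above, and Nrp1 fell by 2.87 with each. Gpr83 rose by 0.61 ± 0.17 with Cl-BBQ and had a difference of 0.38 with TCDD (adjusted p = 0.29), and its Cl-BBQ call was lost without Cl-BBQ replicate 2 or vehicle replicate 2, 3 or 4 (up to 0.10) and with no filter. Ikzf2 fell by 0.56 ± 0.14 with Cl-BBQ, a call lost without vehicle replicate 1, 2 or 4 (up to 0.058). With TCDD the Ikzf2 difference was -0.43 (adjusted p = 0.10), which passed without vehicle replicate 3 (0.0040) and with array weights (0.022). The Il2ra call with TCDD was lost without TCDD replicate 1, 2 or 3 or vehicle replicate 1, 3 or 4 (adjusted p up to 0.11) and with no filter (0.069).

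Proliferation genes moved with the treatment as well. All 12 measured fell in both comparisons, by a median of 1.49 with Cl-BBQ and 1.08 with TCDD, and their list mean lay between 7.60 and 7.76 with Cl-BBQ and between 7.88 and 8.06 with TCDD, against 8.81 to 9.23 with vehicle. The differences with Cl-BBQ and with TCDD were -1.62 and -1.33 for Bub1b, -1.64 and -1.30 for Top2a, -1.60 and -1.25 for Rrm1, -1.55 and -1.07 for Cdk1 and -1.40 and -1.09 for Rrm2. Among the members, the group means of Cd200, Btla and Pdcd1 had the same order, with Cl-BBQ lowest and vehicle highest, though Pdcd1 was called in no comparison. Those of Ctla4, Havcr2, Cd160 and Vsir had the opposite order, and those of Lag3, Tigit and Cd5 were highest with TCDD. Whether the members' differences follow the division of the cells was not tested.

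**Figure D4:**
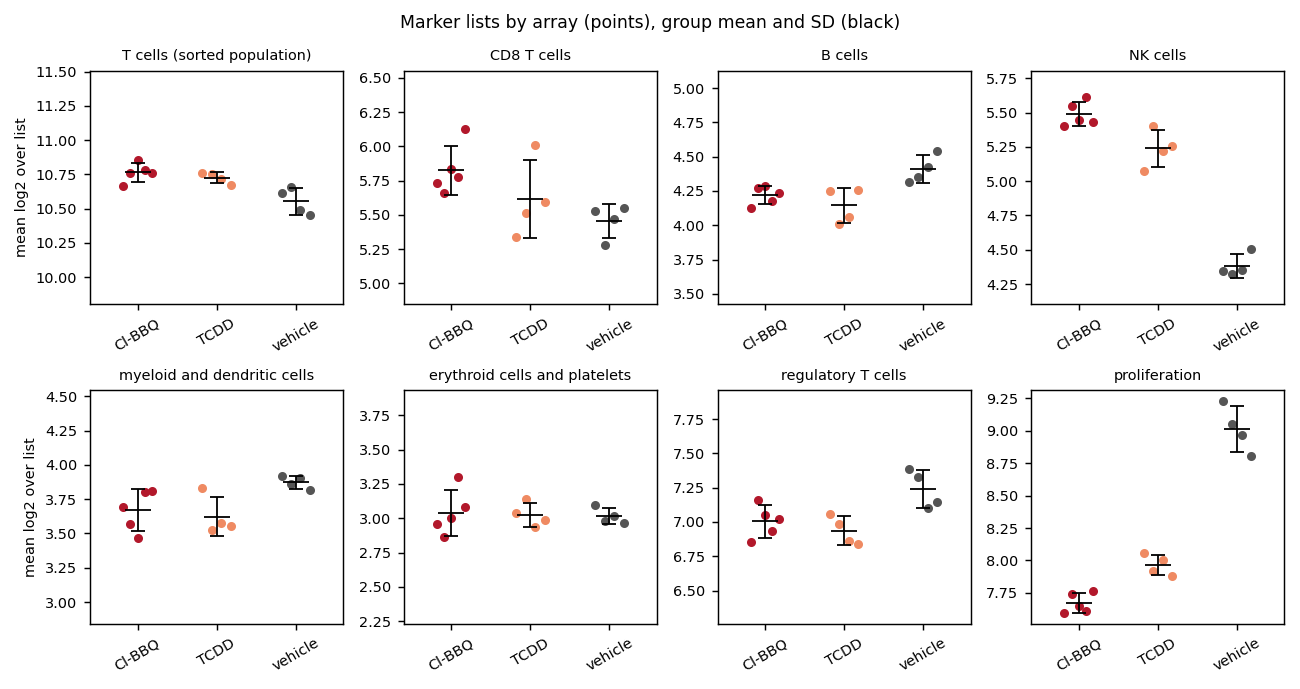
Mean log2 expression over each marker list on every array (points) with the group mean and SD (black), for 5 Cl-BBQ, 4 TCDD and 4 vehicle arrays. The proliferation list is lowest with Cl-BBQ at 7.60 to 7.76, and highest with vehicle at 8.81 to 9.23.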

How the data were processed

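The 10 members and the gene lists were chosen with earlier results of these data known. The deposited log2 expression values for 41345 probe sets on 13 single-colour arrays were made with RMA, per the submitters' processing notes, a method that removes background, makes the distributions of all arrays equal and combines probes into probe sets. A change common to all transcripts is therefore not visible. The version of RMA and the array's genome build are not given in the sources consulted, and probe sets carry no positions. Labelling used oligo-dT priming, per the labels' protocols. Array medians lay between 4.27 and 4.33 and array correlations between 0.943 and 0.976.

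The platform annotation listed 25335 probe sets, 23521 with 1 symbol and 1814 with several, and 16010 had no name. Those with several symbols were left out. This gave 22180 genes, each represented by its brightest probe set on average (1082 had more than 1), and the 12710 genes above 4.31, the median of all values, on at least 4 arrays were tested.

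All 13 arrays entered one fit of 3 group means by lmFit and eBayes (limma 3.58.1 in R 4.3.3), with 10 residual and 4.22 prior degrees of freedom. Contrasts were tested two-sided with Benjamini-Hochberg adjustment over all genes tested, and genes under 0.05 were called. Errors given as SE are limma's moderated ones, intervals are 95% intervals, and SDs are between arrays. The code was tested on simulated data. Of other lists the text names called genes with the smallest adjusted p, up to 4 per list and contrast. Genes named beside these (Cd4, Pdcd1lg2, Tnfrsf14, Foxp3, Gpr83, Ncr1, Klrb1c, Cd8a, Cd8b1, Csf1r, Siglech, Cd79a, Cd79b, Pax5, Blk, Ahr, Dok1 with TCDD, Sla with Cl-BBQ) were picked once their values were known.

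Same-numbered arrays did not deviate together, with correlations of deviations from -0.06 to 0.08 over 12 pairs, so the numbers were not used as pairs. Alternatives were another normalization, median centring, other filters and probe set rules, trend and robust eBayes, array weights, 2 groups only, the replicate number as a block and leaving out each array. The number of arrays limits the precision.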

Additional observations from a re-analysis of the deposited data

Results flagged for a closer look

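Of 30 sets of arrays examined (each of the 10 members in each group), 1 held an array far from its others. Cd5 was 10.41 on vehicle replicate 3, against 10.70 to 10.72 on the other vehicle arrays, a gap that took 94.5% of the range of its group. Chance flags about 1 in 20 such sets. Without that array the Cd5 differences were 0.01 with Cl-BBQ and 0.09 with TCDD, and neither was called with or without it.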

How the results depend on the processing

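Across 30 member differences and 24 other settings there were 717 values, of which 691 kept their side of the threshold, 11 lost a call and 15 gained one. No called difference turned its sign. Among the 691, 3 uncalled ones did: Pdcd1 with TCDD without TCDD replicate 3 (0.01), and Tigit between the ligands without Cl-BBQ replicate 1 or TCDD replicate 1. The calls of Ctla4, Lag3, Havcr2 and Cd160 with both ligands, and of Vsir, Btla and Cd200 with Cl-BBQ, held under every setting that gave a value. Havcr2 has none where a mean above 6 was required. Members called numbered 4 to 7 with TCDD and 7 to 8 with Cl-BBQ when one array was left out, 5 to 7 and 7 to 9 under the other settings, and 0 between the ligands throughout. The calls that were lost were Btla and Cd200 with TCDD, and those gained were Tigit and Pdcd1.

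Over all genes, calls when one array was left out numbered 640 to 961 with TCDD, 1179 to 1434 with Cl-BBQ and 0 to 5 between the ligands. The 3 calls between the ligands became 5 after quantile normalization applied again and with the mean of a gene's probe sets, 6 with trend and robust eBayes and 7 with array weights. They became 0 with no filter on dim probe sets (limma, 1266 genes at an unadjusted p under 0.05), 0 with 2 groups only (785), 0 with the replicate block (781) and 0 on the same 12 arrays without the block (799), a setting added after seeing the data. The cause was not tested. The replicate block left 5 members called with TCDD and 7 with Cl-BBQ, and 714 and 1114 genes; among the members it ended the call of Cd200 with TCDD (0.068). Of the other genes named it ended those of Hmgb1 with Cl-BBQ (0.065) and TCDD (0.069), of Cd6 with both (up to 0.10), of Irf4, Pecam1, Dok1 and Thy1 with TCDD (up to 0.11) and of Icos (0.17) and Gpr83 (0.053) with Cl-BBQ. Cd6 (0.054) and Icos with Cl-BBQ were also not called on those 12 arrays without the block. Values near or under the floor, as for Havcr2, Cd200r1 and Lilrb4a in vehicle cells, limit the precision of their folds.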
